A study of Caenorhabditis elegans with 7 samples.

Results

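The monoamines serotonin, dopamine, tyramine and octopamine are made, packaged, taken back up and broken down by a small group of gene products. Here 10 genes listed under these roles were followed in worms fed with the cocoa peptide 13L. The genes were tph-1, cat-2, cat-4, bas-1, tdc-1, tbh-1, cat-1, mod-5, dat-1 and amx-1. They were taken from a list of names and not by a cut on their values, but with earlier results of these data known. All 10 were found among the 17118 genes that have a probe set of their own on the array. Together they had 13 probe sets (groups of short probes against 1 transcript), 8 genes with 1 probe set each, dat-1 with a pair and tdc-1 with 3. None of the 13 was shared with a different gene in the annotation of the array.

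The RNA was extracted from entire young adults of N2, the wild-type strain, after 3 days at 20°C from the egg. The control group was grown on NGM, the standard agar medium (4 arrays, titled SL1, SL5, SL9 and SL69), and the treated group on NGM with 1 µg/mL of the synthetic peptide 13L (3 arrays, SL4, SL8 and SL12). No allele or transgene distinguished the groups. Each array gave 1 log2 value per probe set after background correction and quantile normalization by the authors, and the offset of that log2 scale is not stated.

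In C. elegans, serotonin is made from tryptophan by hydroxylation and then decarboxylation, and dopamine is made from tyrosine by the same kind of steps. Tyramine is made by decarboxylating tyrosine directly, and octopamine by hydroxylating tyramine. These amines are made in few neurons and set the pace of feeding, egg laying and locomotion. Tyramine and octopamine are also made outside the nervous system, in the sheath cells of the gonad, and tyramine in the uv1 cells of the uterus. The study discussed tryptophan metabolism as a target of 13L. It named tdc-1 among the genes of that pathway with a positive fold change. It also reported that 13L reduced body fat in N2 but not in a tph-1 mutant. Of the genes followed here, those of serotonin synthesis bear on that question, since serotonin is the amine made from tryptophan.

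Of these genes, bas-1 and tdc-1 had the largest positive differences between 13L and NGM, and amx-1 the largest negative one. The level of bas-1 in 13L was 1.42-fold that on NGM, that of tdc-1 on its brightest probe set 1.28-fold, and that of amx-1 0.782-fold. None of the 13 probe sets passed an adjusted p under 0.05 from limma, the moderated test used here with Benjamini-Hochberg adjustment over 22548 probe sets, and their adjusted p-values ran from 0.944 to 0.993. Over the whole array 0 probe sets passed, which is 0%, and 1152 had an unadjusted p under 0.05.

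At an unadjusted p under 0.05, 2 of the 13 probe sets were on the higher side and 1 on the lower side. The same held for 2.54% of all probe sets on the higher side and 2.57% on the lower side. The 13L arrays lay wholly above the NGM arrays on 3 of the 13 probe sets, against 3.31% of all, and wholly below on 1, against 2.77% of all. With 4 against 3 arrays, complete separation has a two-sided p of 0.0571 in an exact permutation test, the smallest the design allows.

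A second fact sets how these values can be read. The array carries 5 probe sets against yeast transcripts, which worms lack, and the highest of their means over the 7 arrays was 0.74. In the measure used here, a probe set with a mean no higher than that is near the yeast controls, as were 41.3% of all probe sets. Of the 13, 6 were near the yeast controls. For tph-1, cat-2, cat-1 and mod-5 this was the only probe set, so these 4 genes were not set apart from background in whole worms. The 7 probe sets above that level belonged to cat-4, bas-1, tdc-1, tbh-1, dat-1 and amx-1. All 3 with an unadjusted p under 0.05 were among these 7, and over all probe sets above the yeast controls the share was 6.9%.

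**Figure D1:**
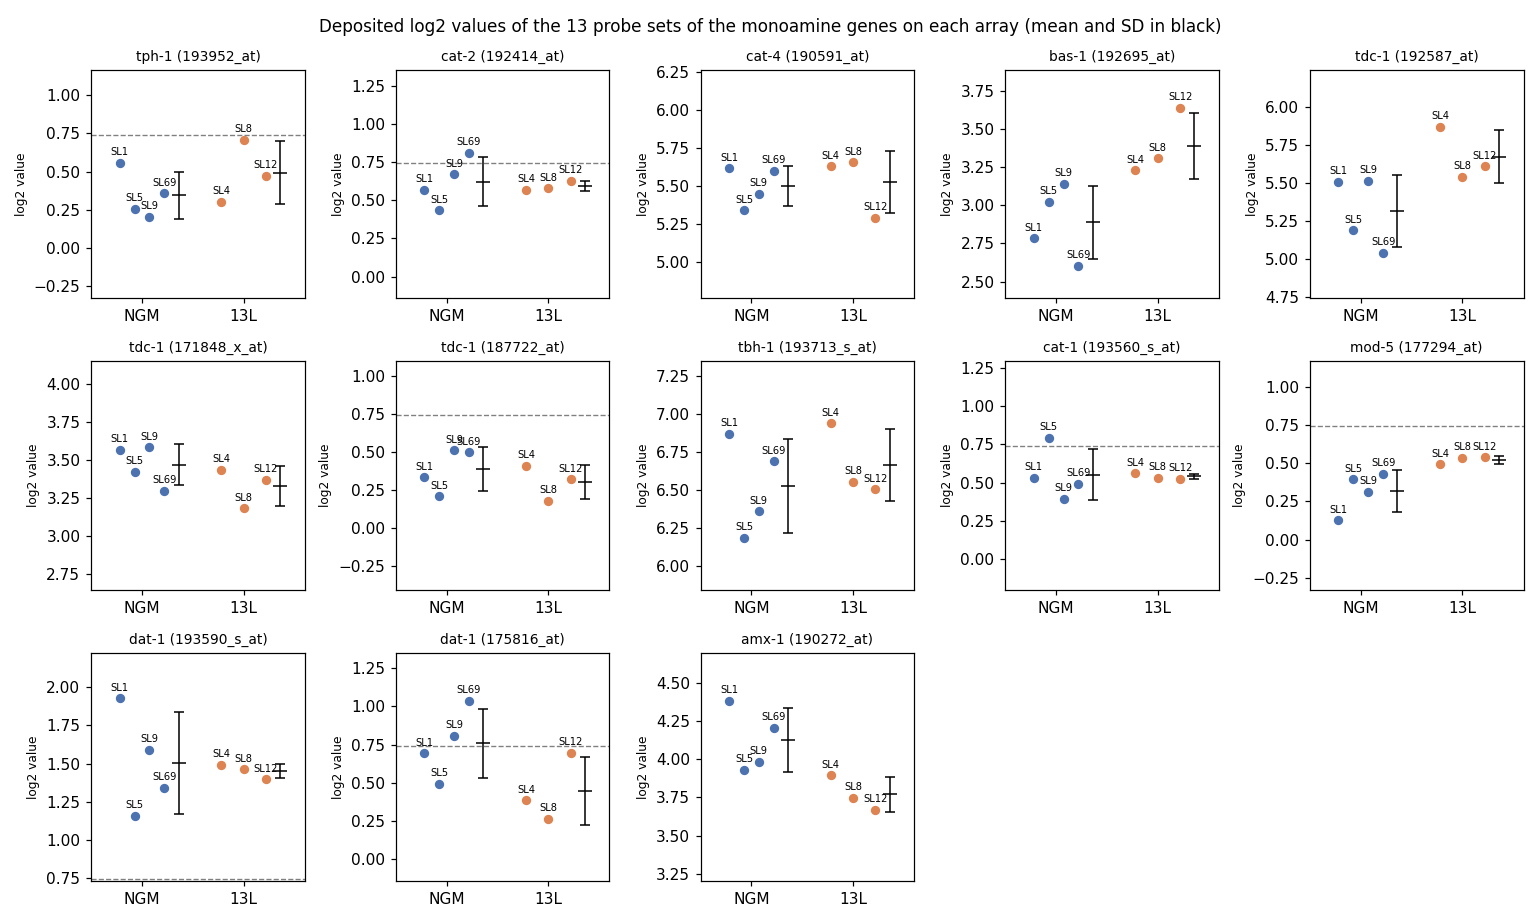
Deposited log2 value (vertical axis) of each of the 13 probe sets on the 4 NGM arrays (blue) and the 3 13L arrays (orange), with the mean and SD of each group in black and the highest yeast control mean of 0.74 as a dashed line. Every panel spans the same range of log2 values, and the groups separate for bas-1, for 1 probe set of tdc-1, for mod-5 and for amx-1.

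Both hydroxylases that start the serotonin and dopamine routes were near the yeast controls. The tryptophan hydroxylase gene tph-1, which makes the first step to serotonin, had log2 values of 0.56 (SL1), 0.26 (SL5), 0.20 (SL9) and 0.36 (SL69) on NGM. In 13L it had 0.30 (SL4), 0.71 (SL8) and 0.47 (SL12). The groups overlapped, since SL4 lay below SL1 and SL69. The difference was 0.15 on the log2 scale (95% interval -0.14 to 0.44, unadjusted p = 0.268, adjusted p = 0.950 from limma), and it ran from 0.043 without SL8 to 0.25 without SL4. Its value on SL69 was shared exactly with 395 other probe sets of that array. The tyrosine hydroxylase gene cat-2, which starts dopamine synthesis, had values from 0.44 to 0.81 on NGM and from 0.57 to 0.63 in 13L. Its difference was -0.03 (95% interval -0.27 to 0.21), and the 13L arrays lay inside the NGM range.

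The cofactor gene cat-4 encodes GTP cyclohydrolase I, which starts the synthesis of the tetrahydrobiopterin that both hydroxylases need. It was well above the yeast controls. On NGM it had 5.62 (SL1), 5.34 (SL5), 5.45 (SL9) and 5.60 (SL69), and in 13L 5.63 (SL4), 5.66 (SL8) and 5.29 (SL12). The 13L arrays held both the highest and the lowest value, and the difference was 0.02 (95% interval -0.25 to 0.30, unadjusted p = 0.850, adjusted p = 0.990 from limma). A difference in cat-4 of more than 0.30 in either direction lay outside this interval.

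The aromatic amino acid decarboxylase gene bas-1, which completes both serotonin and dopamine synthesis, differed the most. Its only probe set had 2.78 (SL1), 3.02 (SL5), 3.14 (SL9) and 2.60 (SL69) on NGM. In 13L it had 3.23 (SL4), 3.31 (SL8) and 3.64 (SL12). All 3 arrays of 13L exceeded the highest NGM array, with a gap of 0.09 between SL9 and SL4. The NGM mean was 2.89 ± 0.24 (SD, n = 4) and the 13L mean 3.39 ± 0.22 (SD, n = 3). The difference was 0.50 with a standard error of 0.15 (95% interval 0.16 to 0.85, unadjusted p = 0.00959, adjusted p = 0.944 from limma). By unadjusted p it held rank 194 among the 22548 probe sets. With each array left out in turn, the difference stayed between 0.38 (without SL12) and 0.59 (without SL9), with unadjusted p-values from 0.00442 to 0.0431.

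The decarboxylase gene tdc-1 turns tyrosine into tyramine, and its probe sets differed in sign. The brightest one had 5.51 (SL1), 5.19 (SL5), 5.52 (SL9) and 5.04 (SL69) on NGM, and 5.87 (SL4), 5.54 (SL8) and 5.61 (SL12) in 13L. The 13L arrays all lay above, but by a gap of only 0.03 between SL9 and SL8. The difference was 0.36 with a standard error of 0.14 (95% interval 0.03 to 0.69, unadjusted p = 0.0344, adjusted p = 0.944 from limma). It was 0.26 without SL4 (unadjusted p = 0.136) and the unadjusted p also exceeded 0.05 without SL5, SL69 or SL12.

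The second brightest probe set of tdc-1 had a difference of the opposite sign. It had 3.57 (SL1), 3.42 (SL5), 3.58 (SL9) and 3.30 (SL69) on NGM and 3.43 (SL4), 3.18 (SL8) and 3.37 (SL12) in 13L. The groups overlapped, and the difference was -0.14 (95% interval -0.39 to 0.11, unadjusted p = 0.230, adjusted p = 0.949 from limma). Its name ends in _x_at, which on this array marks probes that can also match other transcripts. Within each array, the brightest probe set exceeded the second by 1.75 to 1.94 on NGM and by 2.24 to 2.43 in 13L. This distance was larger by 0.50 in 13L, with no overlap (exact permutation test, two-sided p = 0.0571), a comparison chosen after the values were seen. The third was near the yeast controls with a difference of -0.08. Averaged over all 3, the difference of tdc-1 was 0.05.

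The hydroxylase gene tbh-1, which converts tyramine to octopamine, was measured well above the yeast controls. It had 6.87 (SL1), 6.18 (SL5), 6.36 (SL9) and 6.69 (SL69) on NGM and 6.94 (SL4), 6.55 (SL8) and 6.51 (SL12) in 13L. SL1 and SL69 lay among the 13L arrays. The difference was 0.14 (95% interval -0.27 to 0.55, unadjusted p = 0.453, adjusted p = 0.966 from limma). It ran from 0.0046 without SL4 to 0.25 without SL1. The spread of tbh-1 gave it the widest interval of the 13 probe sets.

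Because tdc-1 and tbh-1 are also used in the gonad, markers of the gonadal sheath and spermatheca were read beside them. Of 5 such genes, 4 had a positive difference, none had an unadjusted p under 0.05 and none was near the yeast controls. Their median difference was 0.17. The sum of their log2 values lay between 14.6 and 15.8 on NGM and between 15.7 and 16.4 in 13L. Oocyte markers also leaned to the positive side, with 6 of 7 and a median of 0.16. Over all genes, 8616 differences were positive and 8502 negative. The dimmer probe sets of the oocyte markers oma-2 and cbd-1 (named after their values were seen) differed by 0.05 and -0.01. The oocyte maturation gene oma-1 (also named after its values were seen) was higher in 13L by 0.27 with an unadjusted p of 0.0247 from limma. At an unadjusted p under 0.05, 1.99% of all genes were on that side. The sum of the oocyte markers lay between 52.8 and 54.4 on NGM and between 54.3 and 55.8 in 13L. The part of these cell types in the values of tdc-1 and tbh-1 was not tested. In whole worms, a different number of cells of a type and a different amount of RNA per cell cannot be told apart.

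The transporter genes gave little signal. The vesicular transporter gene cat-1, which loads monoamines into synaptic vesicles, had values from 0.39 to 0.79 on NGM and from 0.53 to 0.56 in 13L. Its difference was -0.01 (95% interval -0.26 to 0.23). The serotonin reuptake transporter gene mod-5 had 0.13 (SL1), 0.40 (SL5), 0.31 (SL9) and 0.43 (SL69) on NGM and 0.49 (SL4), 0.54 (SL8) and 0.54 (SL12) in 13L. The groups did not overlap, and the difference was 0.21 (95% interval -0.02 to 0.43, unadjusted p = 0.0666, adjusted p = 0.944 from limma). All 7 values of mod-5 lay below the highest yeast control mean, and its value on SL12 was shared exactly with 438 other probe sets.

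The dopamine reuptake transporter gene dat-1 had a pair of probe sets. The brighter one had 1.93 (SL1), 1.16 (SL5), 1.59 (SL9) and 1.34 (SL69) on NGM and 1.49 (SL4), 1.46 (SL8) and 1.40 (SL12) in 13L. All 3 13L arrays lay inside the NGM range, and the difference was -0.05 (95% interval -0.43 to 0.33). The dimmer one was near the yeast controls, with 0.49 to 1.04 on NGM and 0.26 to 0.70 in 13L. It differed by -0.31 (unadjusted p = 0.0701, adjusted p = 0.944 from limma).

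The gene amx-1, listed here under breakdown, encodes a relative of the monoamine oxidases, and its action on these amines was not tested. It had 4.38 (SL1), 3.93 (SL5), 3.98 (SL9) and 4.21 (SL69) on NGM. In 13L it had 3.90 (SL4), 3.75 (SL8) and 3.67 (SL12). All 3 arrays of 13L lay under the lowest NGM array, with a gap of 0.04 between SL5 and SL4. The NGM mean was 4.13 ± 0.21 (SD, n = 4) and the 13L mean 3.77 ± 0.11 (SD, n = 3). The difference was -0.36 with a standard error of 0.13 (95% interval -0.64 to -0.07, unadjusted p = 0.0214, adjusted p = 0.944 from limma). The unadjusted p was 0.0587 without SL8 and 0.0727 without SL12.

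**Figure D2:**
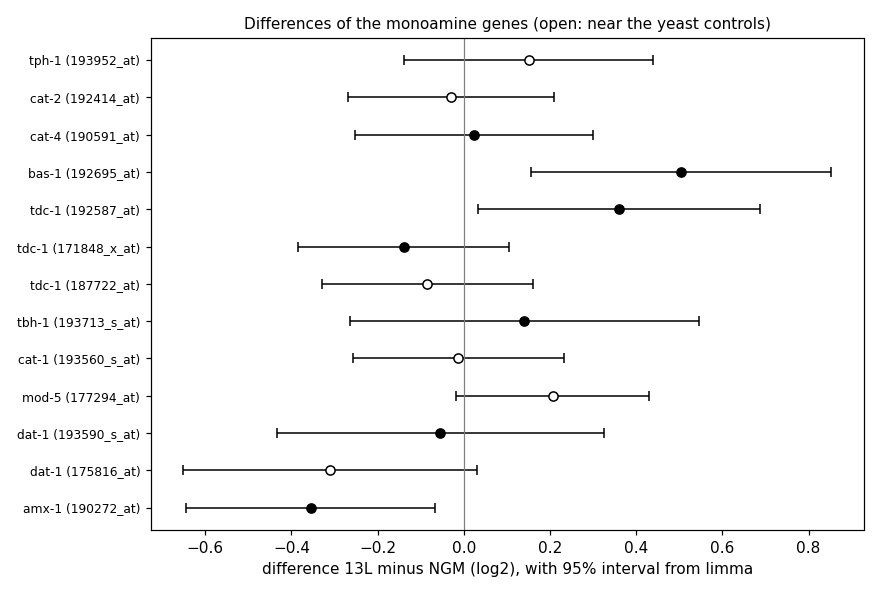
Difference between 13L and NGM on the log2 scale (horizontal axis) for each of the 13 probe sets, with the 95% interval from limma. Open circles are the 6 probe sets near the yeast controls, and the intervals of bas-1, of the brightest probe set of tdc-1 and of amx-1 leave out 0 before adjustment.

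The numbers in the array titles form runs (SL1 and SL4, then SL5 and SL8, then SL9 and SL12), with SL69 by itself. Whether a run was a batch is not stated. Within the runs, bas-1 was higher in 13L by 0.45, 0.29 and 0.50, and amx-1 differed by -0.49, -0.18 and -0.31. The brightest probe set of tdc-1 differed by 0.36, 0.35 and 0.10, and its second one by -0.14, -0.24 and -0.21. The genes tbh-1 and mod-5 were also on 1 side in all 3 runs, with 0.07, 0.37 and 0.15 for tbh-1 and 0.37, 0.14 and 0.23 for mod-5. So was the dimmer probe set of dat-1, with -0.31, -0.23 and -0.11. The share of all probe sets on 1 side in all 3 runs was not computed, so these signs are a description only. In contrast, tph-1 differed by -0.25, 0.45 and 0.27, and cat-4 by 0.01, 0.31 and -0.16. With the runs as blocks, SL69 adds nothing to a difference, since it has no partner, and the differences equal those without SL69. In that fit 4 of the 13 probe sets had an unadjusted p under 0.05, against 7.88% of all probe sets. The unadjusted p was 0.00387 for bas-1, 0.0151 for amx-1, 0.0356 for tdc-1 and 0.0454 for mod-5, and none of these passed when adjusted over all probe sets (adjusted p = 0.428 for bas-1 from limma).

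**Figure D3:**
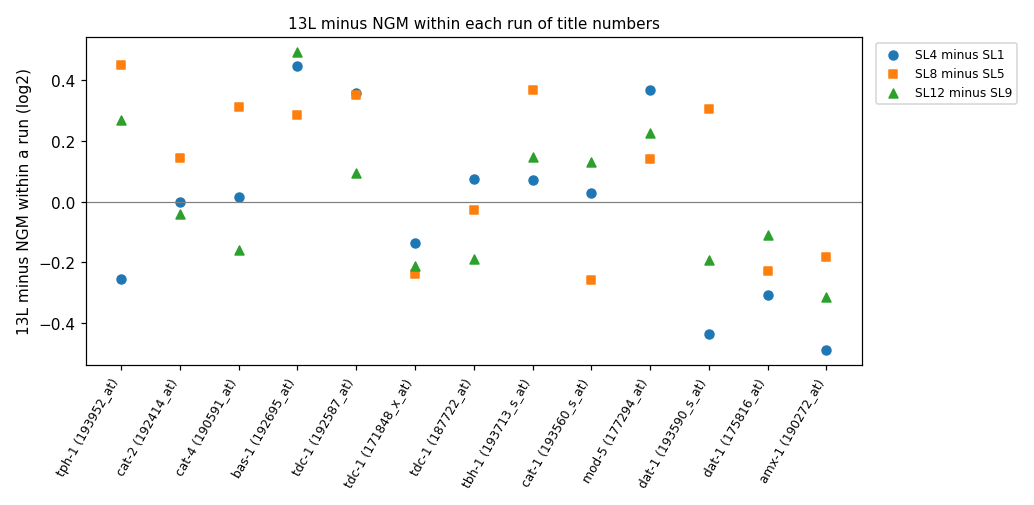
Difference 13L minus NGM on the log2 scale (vertical axis) within each run of array titles, for the 13 probe sets along the horizontal axis. All 3 points of bas-1 lie above 0 and all 3 of amx-1 below it, while those of tph-1 and cat-4 lie on both sides.

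Other genes of the amine pathways were read from lists of 48 names, of which 38 had a probe set of their own, with the brightest probe set standing for each gene. None of the 38 had an unadjusted p under 0.05 from limma and none passed after adjustment, while 4.72% of all genes had an unadjusted p under 0.05. Their median difference was -0.04, against 0.00 over all genes. Among the 10 genes followed here the median was 0.08, with 6 positive and 4 negative.

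Of 4 measured genes of biopterin cofactors, 3 had a positive difference. The largest differences were -0.34 for agmo-1, a biopterin-dependent monooxygenase, and 0.10 for ptps-1, which acts after cat-4 in making tetrahydrobiopterin. The mean of agmo-1 over the 7 arrays was 0.77, just above the yeast control limit of 0.74, and its difference rested on SL69. Without SL69 its difference was -0.04, and without SL1, SL4 and SL69 it was 0.16. Of 5 further amine enzymes, the decarboxylase-like gene basl-1 had the largest difference. This gene is the neighbour of bas-1 on chromosome III and was named in the study's discussion of tryptophan. Its brighter probe set had 0.69 ± 0.12 (SD, n = 4) on NGM and 0.84 ± 0.27 (SD, n = 3) in 13L, a difference of 0.16 (unadjusted p = 0.281 from limma). The mean of that probe set over the 7 arrays was 0.76, just above the yeast control limit of 0.74. Without SL12 the difference of basl-1 was -0.0021, and its dimmer probe set, near the yeast controls, differed by -0.10. The histidine decarboxylase-like gene hdl-1 differed by 0.11 and was near the yeast controls.

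Of 17 measured amine receptor genes, 12 had a negative difference, none had an unadjusted p under 0.05, and 9 were near the yeast controls. Their median difference was -0.09. Among 6 serotonin receptor genes, the G protein-coupled receptor genes ser-5 and ser-4 differed by -0.18 and -0.12. Among 5 dopamine receptor genes, dop-5 and dop-2 differed by -0.15 and -0.14. Among 6 genes of tyramine and octopamine receptors, 5 had a negative difference. The octopamine receptor gene ser-3 had the largest difference of these, -0.22 (unadjusted p = 0.172). The tyramine receptor gene tyra-2 differed by -0.14 and was near the yeast controls.

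Of 12 transcription factor genes that specify neurons making these amines, 7 had a negative difference and 5 a positive one. The lowest unadjusted p of the list (0.0652 from limma) was that of egl-43 (named after its values were seen). It was higher in 13L by 0.20 and near the yeast controls. The homeobox genes ceh-43 and ceh-20, which act in dopamine neurons among other cells, differed by -0.45 and -0.41. The dimmer probe set of ceh-20 differed by 0.10. Without SL69, where ceh-20 was highest, its difference was -0.13. That of ceh-43 ran from -0.69 without SL9 (unadjusted p = 0.0228 from limma) to -0.16 without SL12, and its unadjusted p was 0.0456 with the runs as blocks.

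Markers of neurons were read beside these lists. Of 15 such genes, 12 had a negative difference and none passed after adjustment. At an unadjusted p under 0.05, 2 were on the lower side, against 2.73% of all genes, namely unc-31 and egl-21 (named after their values were seen). Their median difference was -0.18. The sum of their log2 values lay between 35.3 and 39.6 on NGM and between 34.7 and 35.4 in 13L. The high sums on NGM were those of SL1 (39.0) and SL69 (39.6), while SL5 had 35.9 and SL9, inside the 13L range, 35.3. Dimmer probe sets of these genes were not counted, and rgef-1, sng-1 and unc-31 were near the yeast controls. The sum of the sperm markers set arrays of both groups apart, with 4.72 (SL1), 5.12 (SL4) and 6.52 (SL69) against 9.04 to 10.9 on the other arrays. It rested on ssp-10, gsp-3 and gsp-4 (named after their values were seen), whose probe set names end in _x_at. In contrast, spe-9 was highest on SL69 (1.02), and spe-11 was near the yeast controls. A fit without SL1, SL4 and SL69 held only SL5 and SL9 on NGM and SL8 and SL12 in 13L. There bas-1 differed by 0.39 (unadjusted p = 0.0441 from limma), tdc-1 by 0.22 (unadjusted p = 0.188) and amx-1 by -0.25 (unadjusted p = 0.0832). The gene tph-1, near the yeast controls, differed by 0.36 (unadjusted p = 0.0382, against 0.268 over all 7 arrays). In that fit 4.43% of all probe sets had an unadjusted p under 0.05. The part of these cell types in the differences was not tested.

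**Figure D4:**
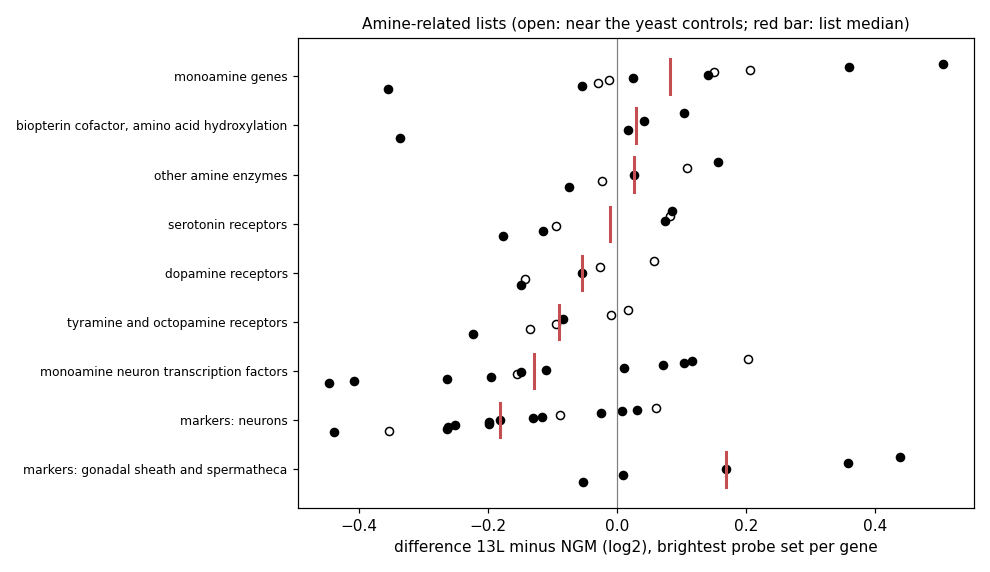
Difference 13L minus NGM on the log2 scale (horizontal axis) of each gene on its brightest probe set, by list (vertical axis), with the list median as a red bar and open circles for genes near the yeast controls. The median is 0.08 for the 10 monoamine genes, -0.09 for tyramine and octopamine receptors and -0.18 for neuron markers.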

How the data were processed

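The authors hybridized labeled RNA to Affymetrix C. elegans Genome Arrays, corrected the background with RMA, normalized by quantiles and deposited log2 values per probe set for 7 arrays. RMA and limma are the tools in the submitters' processing notes, without versions. Of 22625 probe sets, 77 controls were left out and 22548 tested. Names came from the platform annotation, with symbols updated by gene ID through the WBcel235 gene table. The 10 genes and all lists were chosen with earlier results of these data known.

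Groups were compared with limma 3.58.1 in R 4.3.3 (two-sided, no trend, Benjamini-Hochberg adjustment over all probe sets, threshold 0.05). Single differences also had an exact permutation test (35 regroupings). Beside the 10 genes, the text names each wider-list gene at an unadjusted p under 0.05 and the 2 with the largest absolute difference per list. The procedure was tested on simulated data. The number of arrays limits the precision. The study's methods state 4 biological replicates per condition, of which 3 arrays of 13L were analysed here. The labels do not name separate cultures, so p-values measure the spread between these arrays. Alternatives were single arrays left out, runs of titles as blocks, cyclic loess, median centring, array weights, a trended robust fit, probe sets above the yeast controls, other probe sets, and a fit without SL1, SL4 and SL69 added after seeing the data. Over all probe sets, deviations from group means correlated at 0.529, 0.156 and 0.537 in the runs of SL1, SL5 and SL9. No pair outside a run was computed, so these values do not show whether arrays of a run were more alike than others.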

Additional observations from a re-analysis of the deposited data

How the results depend on the processing

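No probe set passed the adjusted test under any of the 14 alternatives refitted across the array. Restriction to probe sets above the yeast controls left out tph-1, cat-1, cat-2 and mod-5, that to names without _s_at or _x_at left out cat-1 and tbh-1, and the mean over probe sets had no test. The number of probe sets at an unadjusted p under 0.05 was 3 of 13, and from 2 to 3 with single arrays left out. It was 5 with trend and robust settings, which added mod-5 and the dimmer probe set of dat-1. The genes counted were not the same in each fit. Without SL5 the dimmer probe set of dat-1 replaced tdc-1, without SL69 mod-5 did, and only bas-1 was counted in every fit. On the higher side the number was from 1 to 2 with single arrays left out. On the lower side it was from 0 to 2, and 2 with trend and robust settings and 0 without SL1, SL4 and SL69. In the wider amine lists it was 0, and from 0 to 1 with single arrays left out. With runs as blocks it was 2 (ser-3 and ceh-43, both lower in 13L), where the share over all probe sets was 7.88% against 5.11% without blocks. It was 1 with array weights (ser-3, lower in 13L). It was also 1 with trend and robust settings and without SL1, SL4 and SL69, both times egl-43, higher in 13L. The median difference of the 10 genes ran from -0.01 to 0.15 with single arrays left out.

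The labels share no replicate numbers across groups, so the blocked fit rests on runs of titles. With single arrays left out, the difference turned sign for 4 of the 10 genes. It ran from -0.065 (without SL9) to 0.067 (without SL5) for cat-1, from -0.092 (without SL5) to 0.034 (without SL69) for cat-2, from -0.041 (without SL8) to 0.14 (without SL12) for cat-4, which was also negative without SL4 or SL5, and from -0.17 (without SL5) to 0.087 (without SL1) for dat-1. With runs as blocks cat-2 was 0.034. Without SL1, SL4 and SL69, cat-2 was 0.051, dat-1 0.056 and agmo-1 0.16. The second probe set of tdc-1 gave -0.14. Among wider genes, basl-1 ran from -0.0021 to 0.24, ptps-1 from -0.017 (without SL12) to 0.17 and ser-4 from -0.19 to 0.018 (without SL8). The cause was not tested. Signal near the yeast controls limits tph-1, cat-1, cat-2 and mod-5.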
